A study of Saccharomyces cerevisiae with 9 samples.

Results

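The comparison described here sets budding yeast depleted of both Bdp1 and Rna15 against yeast depleted of Bdp1 alone, by direct sequencing of polyadenylated RNA on the Oxford Nanopore platform, which places the 3′ end of each molecule on the genome. It was chosen by the sample labels and uses 6 of the 9 libraries of the series. The 3 libraries of the first group, Bdp1AA Rna15AA, come from a strain described as HHY168 with fpr1delta::hphMX4, BDP1-FRB::kanMX6 and RNA15-FRB::His. The 3 libraries of the second group, Bdp1AA, come from HHY168 with fpr1delta::hphMX4 and BDP1-FRB::kanMX6. The remaining 3 libraries, called WT in the labels and used here only for side values, carry fpr1delta::hphMX4 alone. All 9 cultures received rapamycin for 2 h, so exposure to rapamycin is shared by every group. The labels do not say how many clones each strain represents.

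In the anchor-away method, rapamycin joins a protein carrying the FRB tag to an anchor that leaves the nucleus, and the tagged protein is carried out with it. Rna15 is an RNA-binding subunit of cleavage factor IA, the complex that, together with Hrp1 and the cleavage and polyadenylation factor, cuts most yeast pre-mRNAs and positions their poly(A) tails. Rna15 contacts A-rich positioning elements just upstream of the cut, and Hrp1 contacts UA-rich efficiency elements such as TATATA further upstream. Bdp1 belongs to TFIIIB, which recruits RNA polymerase III, and it was depleted in both groups compared here.

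Each deposited table holds 1 column in which the 3 libraries of a group are pooled, and some positions are listed under several genes. No source states why, and judged from these shared positions a read appears to be listed under every gene that it overlaps, which the values on next genes, chains of genes and read-in below take as given. The Bdp1AA Rna15AA table held 7050919 reads with ends downstream of 4509 genes, and the Bdp1AA table held 14160864 reads downstream of 5338 genes, counting in both only positions with a signal of at least 0.83413, or 11 reads in Bdp1AA Rna15AA and 17 reads in Bdp1AA. No spread between libraries can be computed from pooled columns, so no difference below has been set against replicate error and no test was made. The 95% intervals are exact binomial intervals that cover counting error of reads or of genes alone, and reads from one library preparation are not a replicate of the culture. A gene was compared where both tables held at least 60 of its reads. This left 2936 genes, of which 2767 are protein-coding.

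The tagged genes were examined first. BDP1 (chromosome XIV, 555048 to 556832, plus strand) was not listed in Bdp1AA Rna15AA or in Bdp1AA and had 340 reads in WT as deposited. RNA15 (chromosome VII, 416146 to 417036, minus strand) had no end listed downstream of the gene in Bdp1AA Rna15AA, against 343 reads in Bdp1AA and 461 in WT as deposited. In Bdp1AA Rna15AA the RNA15 ends lay inside the gene instead, with 382 reads and a top position 3 nt before the last base of the gene. No end inside RNA15 was listed in Bdp1AA or WT. By the labels BDP1 carries the FRB tag in both compared groups and RNA15 in Bdp1AA Rna15AA alone, and the part of the tag in these listings was not tested. FPR1, which is given as deleted in all groups, was not listed in Bdp1AA Rna15AA or Bdp1AA but had 158 reads in WT as deposited, so the WT values below come from a table that goes against its label at this gene. Whether rapamycin acted in WT as in the other groups was not tested.

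In some genes nearly all 3′ ends lay at another position in Bdp1AA Rna15AA, and the sequences at both positions are shown so that the sites can be compared. For 5 of the coding genes with the largest differences in site usage, the 30 bases up to and including the most used end are shown for both groups, read from the RefSeq R64 genome on the strand of the transcript, 5′ to 3′. Capitals mark the A-rich motifs AATAAA and (as a genomic run) AAAAAA, and the efficiency element TATATA, where these occur.
YGR210C, Bdp1AA Rna15AA, chrVII:912829-912858, minus strand, 674 nt past the gene: caattttaaaaagaaactctattacatcta
YGR210C, Bdp1AA, chrVII:913406-913435, minus strand, 97 nt past the gene: gatgctccctacaaggtggctcttttctta
CRN1, Bdp1AA Rna15AA, chrXII:993031-993060, plus strand, 328 nt past the gene: accctgaatgaatttttatttatatttttc
CRN1, Bdp1AA, chrXII:992858-992887, plus strand, 155 nt past the gene: acctgtccactaacAAAAAAggaaacaaaa
HCR1, Bdp1AA Rna15AA, chrXII:538390-538419, minus strand, 402 nt past the gene: gtttcatcatcaacatgctcaattttcttc
HCR1, Bdp1AA, chrXII:538551-538580, minus strand, 241 nt past the gene: tggagaatataatgtgtttttgcaccgtta
SEC22, Bdp1AA Rna15AA, chrXII:681126-681155, plus strand, 311 nt past the gene: gtattaagttataattcctggAAAAAAAAA
SEC22, Bdp1AA, chrXII:680922-680951, plus strand, 107 nt past the gene: tatagtatggcaatttatttgacataatta
YET3, Bdp1AA Rna15AA, chrIV:329606-329635, minus strand, 230 nt past the gene: aaaaacggaaaggaaatagaataataataa
YET3, Bdp1AA, chrIV:329748-329777, minus strand, 88 nt past the gene: gtcgatgtgcaaaagcctacattatttttc
Of these 10 windows, that of CRN1 in Bdp1AA held AAAAAA a few bases before the end, and that of SEC22 in Bdp1AA Rna15AA ended in a run of A encoded by the genome. The other windows held none of the 3 motifs, which says only that these letters are not in the last 30 bases.

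Ends lay further downstream in Bdp1AA Rna15AA in many genes, in most by under 100 nt. The shift of a gene is its mean 3′ end position, in nt past the annotated gene end, in Bdp1AA Rna15AA minus that in Bdp1AA. Of 2936 genes, 1239 had a shift of 20 nt or more (42.2%), called distal below, and 38 had a mean end 20 nt or more closer to the gene (1.29%). The median coding gene ended 153 nt past its end in Bdp1AA Rna15AA and 117 nt in Bdp1AA. The lower quartile of the shift over all compared genes was 2.62 nt, the upper quartile 57.7 nt and the 95th percentile 403 nt. The shift reached 100 nt in 522 genes (17.8%), 500 nt in 116 genes (3.95%) and 1000 nt in 35 genes (1.19%), while 907 genes moved by less than 5 nt (30.9%). With the median end position in place of the mean, 641 genes moved distally by 20 nt or more.

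**Figure D1:**
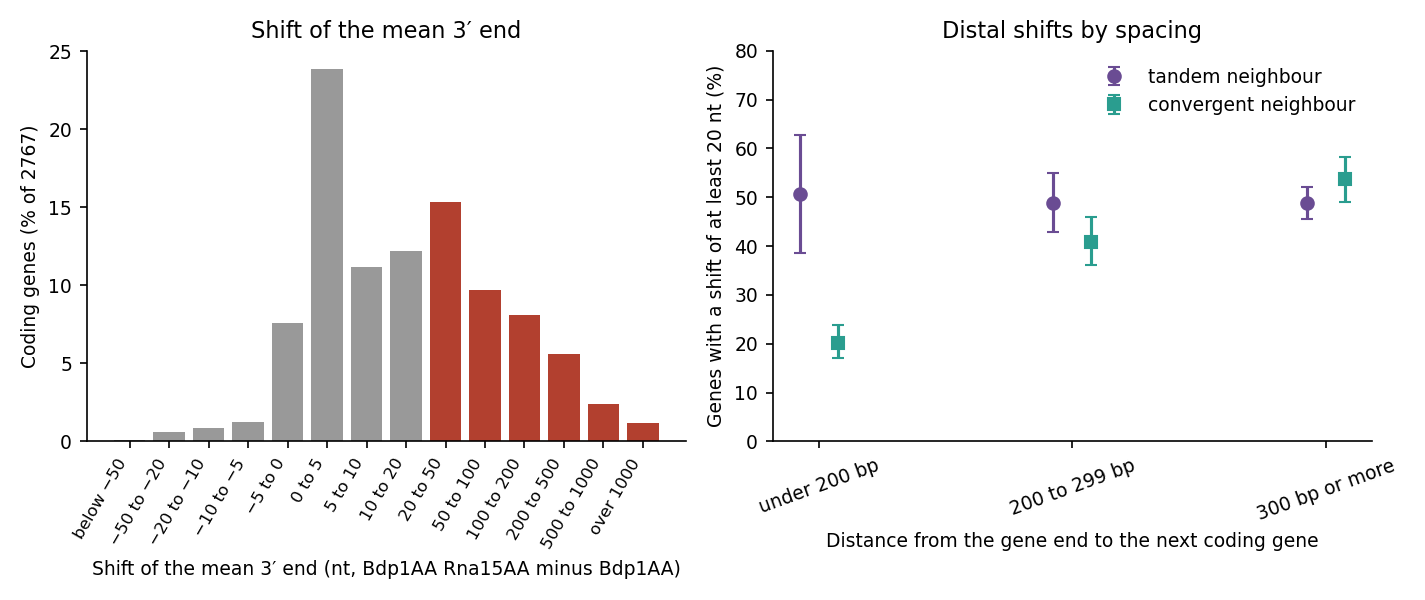
Left, share of the 2767 compared coding genes by shift of the mean 3′ end in nt, Bdp1AA Rna15AA minus Bdp1AA, with shifts of at least 20 nt in red and bins of unequal width. Right, share of genes with a shift of at least 20 nt by distance to the next coding gene, for tandem (circles) and convergent (squares) neighbours, with exact 95% intervals over genes: 20.2% of convergent genes with a neighbour under 200 bp away were shifted, against 53.7% at 300 bp or more.

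The tail of long transcripts was seen in many genes. As a mean over coding genes, 71.9% of reads in Bdp1AA Rna15AA and 62.2% in Bdp1AA ended more than 100 nt past the gene. The share past 200 nt was 27.6% in Bdp1AA Rna15AA and 15.6% in Bdp1AA. Past 500 nt it was 5.91% in Bdp1AA Rna15AA and 1.32% in Bdp1AA, and past 1000 nt it was 3.29% in Bdp1AA Rna15AA and 0.448% in Bdp1AA. At the common minimum, any end past 500 nt was found for 681 coding genes in Bdp1AA Rna15AA and for 70 in Bdp1AA. Any end past 1000 nt was found for 455 genes in Bdp1AA Rna15AA and 27 in Bdp1AA. Pooled over reads of coding genes, 72.5% (interval 72.5 to 72.5%) in Bdp1AA Rna15AA and 64.9% (64.9 to 65.0%) in Bdp1AA ended more than 100 nt away. The pooled shares past 500 nt rest largely on YLR154C-G, a gene inside the ribosomal DNA whose 196984 reads in Bdp1AA Rna15AA ended on average 1543 nt away and whose 447731 reads in Bdp1AA ended 1581 nt away. Without it 1.95% of reads in Bdp1AA Rna15AA and 0.600% in Bdp1AA ended past 500 nt.

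The longest shifts among coding genes holding 200 or more reads in each table were in MDM38, a mitochondrial inner membrane protein gene, BAT2, a branched-chain amino acid transaminase gene, and DEP1, a gene for a subunit of the Rpd3L histone deacetylase complex. MDM38 had 280 reads in Bdp1AA Rna15AA with a mean end 2078 nt past the gene and 626 reads in Bdp1AA with a mean end at 189 nt, a shift of 1889 nt. In Bdp1AA Rna15AA 90% of MDM38 reads lay past the whole downstream gene YAP7, and none did in Bdp1AA. BAT2 had 210 reads in Bdp1AA Rna15AA with a mean end at 1709 nt and 2279 in Bdp1AA at 84.1 nt. DEP1 had 286 reads in Bdp1AA Rna15AA at a mean of 1384 nt and 325 in Bdp1AA at 99.3 nt, and 85.0% of its Bdp1AA Rna15AA reads ended past CYS3, the cystathionine gamma-lyase gene. The next in order were SEC72, of protein translocation into the endoplasmic reticulum (1256 nt), YIR035C (1170 nt), HMT1, an arginine methyltransferase gene (1148 nt), CCT6, a chaperonin subunit gene (1131 nt), ABP1, an actin-binding protein gene (1007 nt), LTV1, of small ribosomal subunit assembly (988 nt), and RPS9A (956 nt). These 10 genes were ranked on this measure, and their shifts are a description of the upper end. Counted under the nearest upstream gene only, the ends of RPS9A gave a shift of −0.97 nt, those of CCT6 one of 0.41 nt and those of ABP1 one of under 2 nt. That setting gives an end past a whole listed same-strand gene to that gene alone, so long readthrough is left out by construction. With the median end position the shift was 5 nt in CCT6 and 0 nt in ABP1.

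Shifts toward the gene were few and short. GLO3, which encodes a GTPase-activating protein for Arf, had a mean end at 51.1 nt in 595 reads of Bdp1AA Rna15AA and at 116 nt in 685 reads of Bdp1AA, a shift of −65.3 nt. LYS12, of lysine synthesis, had a shift of −47.1 nt, SUA7, the TFIIB gene, −42.2 nt, RPL12A −39.8 nt and YLR154C-G −37.2 nt. In GLO3 the site at 43 nt took 83.4% of reads in Bdp1AA Rna15AA and 18.4% in Bdp1AA. The coding sequence of RPL12A has a close paralog, so its reads may be divided between copies.

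Some of the most abundant mRNAs kept their ends. TDH3, a glyceraldehyde-3-phosphate dehydrogenase gene, had 149526 reads with a mean end at 105.1 nt in Bdp1AA Rna15AA and 343495 reads at 104.6 nt in Bdp1AA. PGK1, the phosphoglycerate kinase gene, ended at 164 nt in Bdp1AA Rna15AA and 163 nt in Bdp1AA, and CWP2, RPP1B and RPP2B also moved by under 2 nt. Among the 10 genes with most reads in Bdp1AA Rna15AA, RPL41B (2.54 nt), TDH3 (0.42 nt), PGK1 (1.41 nt), TEF1 (3.58 nt) and RPS31 (4.61 nt) moved by under 5 nt. CCW12, a cell wall gene, moved by 25.5 nt and YDR524C-B by 24.1 nt, and in CCW12 the most used end within its site lay at 142 nt in Bdp1AA Rna15AA and 89 nt in Bdp1AA. PDC1 and CDC19 moved by 16.5 and 16.4 nt. RPL41B and TEF1 have near-identical copies.

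Site choice was described by joining ends at most 25 nt apart into sites of at least 10 reads. At least 20 percentage points of reads lay at other sites in 795 of 2936 genes (27.1%), and in 356 genes it was at least 50 points. The main Bdp1AA site held a median of 98.0% of reads in Bdp1AA Rna15AA and 100% in Bdp1AA. The lower quartile was 77.6% in Bdp1AA Rna15AA and 96.8% in Bdp1AA. The main site held under 50% of the reads in 425 genes in Bdp1AA Rna15AA and in 27 genes in Bdp1AA, and in 92 genes no Bdp1AA Rna15AA read was listed there. The main site was chosen as the one with most Bdp1AA reads, so part of its lower share in Bdp1AA Rna15AA is fixed by that choice. Genes with more than 1 site made up 55.7% in Bdp1AA Rna15AA and 34.4% in Bdp1AA.

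The most used site differed in 388 coding genes. It was more distal in Bdp1AA Rna15AA in 376 of them and more proximal in 12, with a median distance between the 2 sites of 150.5 nt (quartiles 84 to 314.5 nt). Genes with a single site shared by both tables, 1017 in all, had a median shift of 2.43 nt and 61 distal calls, while the other 1919 had a median of 34.4 nt and 1178 distal calls. Of the 1239 distal calls, 61 therefore lay in genes with a single shared site. The other 1919 also hold genes whose site use hardly changed. CCW12, for example, had a shift of 25.5 nt with 0.46 percentage points of its reads at other sites.

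The sites printed above belong to genes whose most used site differed. In YGR210C all 446 reads in Bdp1AA Rna15AA ended at the site 674 nt away, past the thioredoxin gene TRX2, while all 621 reads in Bdp1AA ended at the site at 97 nt. In CRN1, the coronin gene, the site at 328 nt took 98.6% of 951 reads in Bdp1AA Rna15AA and had no end in Bdp1AA at the common minimum. There the site at 155 nt took 95.6% of 939 reads. In HCR1, the gene of an initiation factor subunit associated with eIF3, the site at 402 nt took 96.8% of 992 reads in Bdp1AA Rna15AA, and the site at 241 nt took 98.9% of 2366 reads in Bdp1AA. SEC22, a SNARE gene, used the site at 311 nt for 93.5% of 276 reads in Bdp1AA Rna15AA, a site that held 4.10% of 1220 reads in Bdp1AA. YET3, an endoplasmic reticulum protein gene, had 5458 reads in Bdp1AA Rna15AA and 4890 in Bdp1AA. Its distal site at 230 nt took 95.6% of reads in Bdp1AA Rna15AA and 1.15% in Bdp1AA. MRPL7, ARL1, CEG1 and LTV1 had usage differences of 94.4, 94.2, 93.6 and 93.4 percentage points.

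**Figure D2:**
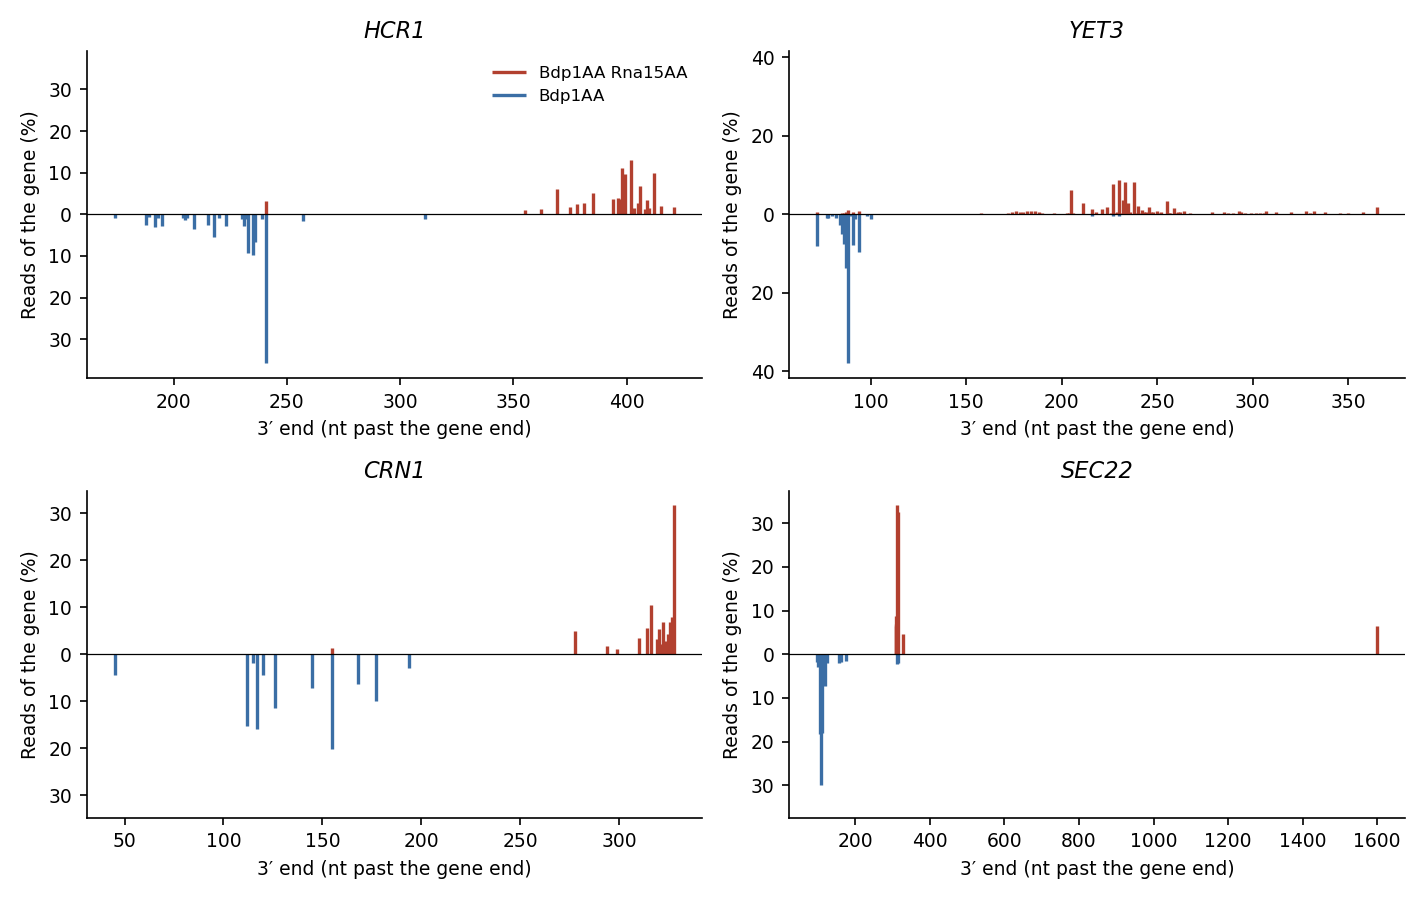
Percent of each gene's reads (vertical axis, Bdp1AA Rna15AA upward in red, Bdp1AA downward in blue) by 3′ end position in nt past the gene end, for HCR1, YET3, CRN1 and SEC22. In each gene the red ends gather beyond the blue ones, as at 402 nt against 241 nt in HCR1, and some SEC22 ends in Bdp1AA Rna15AA lie at 1599 nt.

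Across coding genes, 712 sites in 680 genes gained at least 20 percentage points in Bdp1AA Rna15AA and 767 sites lost as many. Another 1486 sites, called kept, held at least 20% of a gene's reads in Bdp1AA and changed by under 5 points. The gained sites lay a median of 286 nt past the gene (quartiles 203 to 510 nt), the lost sites 112 nt and the kept sites 117 nt. Many gained sites were also listed in Bdp1AA. At the common minimum 287 of the 712 had ends in Bdp1AA, and 225 more were listed there among positions from 2 reads up as deposited, which is 71.9% together.

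The sequence upstream of the ends differed between these classes of site. TATATA, on the transcript's strand in the 80 to 20 bases before the end, was found at 36.9% of the gained sites (interval 33.4 to 40.6%), at 42.4% of the lost sites (38.8 to 46.0%) and at 51.0% of the kept sites (48.4 to 53.6%). Over all 5909 sites it was found at 36.3%, and in windows of the same length 300 nt before the ends of 2223 genes, inside the genes, at 0.900%. AATAAA or AAAAAA, on the same strand in the 35 to 5 bases before the end and counted once where they overlap, was found at 21.1% of the gained sites (18.1 to 24.2%), at 14.1% of the lost sites (11.7 to 16.7%) and at 19.0% of the kept sites (17.0 to 21.1%), against 17.1% of all sites and 2.88% of the windows inside genes. For main Bdp1AA sites that kept under 25% of their share in Bdp1AA Rna15AA the A-rich motifs were found at 11.5% (7.65 to 16.4%), at 15.4% (11.8 to 19.5%) where 25 to under 75% was kept and at 18.9% (17.3 to 20.6%) where at least 75% was kept. TATATA followed the same order, with 42.0%, 45.6% and 49.5%, although the intervals of neighbouring classes overlap for both motifs. At least 6 A, in any order, among the last 10 genomic bases were found at 29.8% (26.4 to 33.3%) of the gained, 26.5% (23.4 to 29.7%) of the lost and 28.4% (26.1 to 30.8%) of the kept sites, with intervals that overlap. A motif match is a description of the letters and not a shown binding site.

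Shifts differed with the direction of the next gene. Of 1295 coding genes whose next coding gene lies in the same direction (tandem), 48.9% had a distal shift, with a median of 18.5 nt (interval 14.8 to 21.8 nt). Of 1454 genes facing a convergent neighbour, 37.0% had one, with a median of 10.7 nt (9.40 to 12.0 nt), against 42.3% of all 2767 coding genes. The share for tandem genes was about level over spacing, 50.7% under 200 bp and 48.8% at 300 bp or more. For convergent genes it was 20.2% (17.0 to 23.8%) with under 200 bp to the neighbour, 40.9% (36.0 to 45.9%) with 200 to under 300 bp and 53.7% (49.1 to 58.3%) with 300 bp or more. With the median end position the median shifts were 2 nt for tandem and 3 nt for convergent genes. Counted under the nearest upstream gene only, that of tandem genes was 6.36 nt and that of convergent genes 9.86 nt. By construction that setting leaves out ends past a whole listed same-strand gene, which touches tandem genes most, so the order of these 2 values is not read further. Of 65 genes followed by a tRNA gene at 500 bp or less, 33 had a distal shift (50.8%, 38.1 to 63.4%), against 1126 of 2677 genes with none within 1000 bp (42.1%, 40.2 to 44.0%), a difference within the interval of the smaller group. The share of the genes near a tRNA gene was 33.3% with the minimum doubled and 20% with the median end position. With the median end position 641 of all 2936 compared genes were distal. The share of genes far from a tRNA gene was not computed under these settings, so they do not compare the 2 groups. Bdp1 was depleted in both groups of this comparison.

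Transcripts entered the next gene. Among 1283 non-overlapping tandem genes, 482 had reads that ended inside or past the next coding gene in Bdp1AA Rna15AA and 57 in Bdp1AA. As a mean over these genes, 10.1% of reads in Bdp1AA Rna15AA and 2.46% in Bdp1AA ended there, and pooled over reads the shares were 4.73% (4.71 to 4.76%) in Bdp1AA Rna15AA and 1.48% (1.47 to 1.49%) in Bdp1AA. With each end counted under the nearest upstream gene only, the pooled share was 2.70% in Bdp1AA Rna15AA, but that setting by construction leaves out ends past the whole next gene where they are listed under it. Most such genes had ends past the whole next gene, 431 in Bdp1AA Rna15AA and 24 in Bdp1AA. In 362 genes in Bdp1AA Rna15AA and 23 in Bdp1AA, ends lay within 50 nt of the most used end of that next gene. Ends past a gene therefore often lay at the site used by the gene behind it. Facing a convergent neighbour, 665 of 1445 genes in Bdp1AA Rna15AA and 426 in Bdp1AA had ends in or past the neighbour, on the strand antisense to it, but 82 in Bdp1AA Rna15AA and 12 in Bdp1AA had any past the whole of it.

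**Figure D3:**
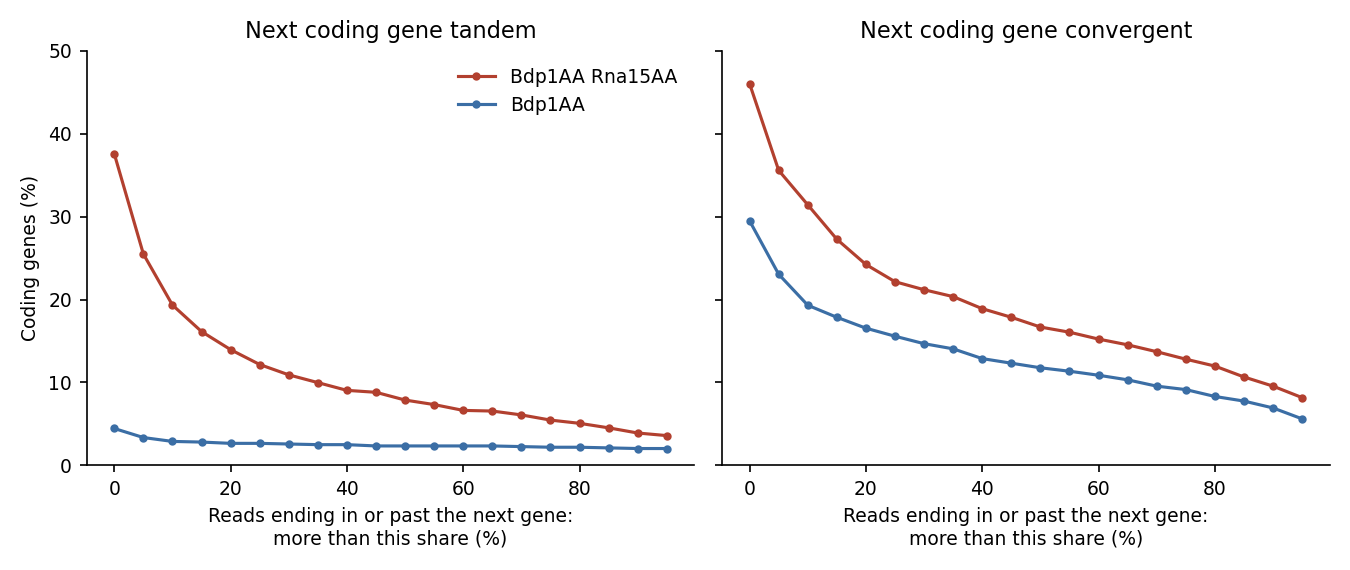
Share of coding genes (vertical axis) in which more than a given percent of reads (horizontal axis) ended in or past the next coding gene, for tandem (left) and convergent (right) neighbours, with Bdp1AA Rna15AA in red and Bdp1AA in blue. The Bdp1AA Rna15AA curve lies above the Bdp1AA curve throughout in both panels, with 482 against 57 tandem genes at any share.

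The genes ranked highest on this share ended in or past the next gene in both groups. HYP2, which encodes the translation factor eIF5A, had all of its 50383 reads in Bdp1AA Rna15AA and all of its 49305 reads in Bdp1AA ending in or past MTC7, 29 bp away. The same held for CTR2, YGL188C-A, PMP1, YKL023C-A and YAP7 at tandem neighbours and for SHP1 at a convergent one, with 100% in both groups. RPS28B, MBF1 and ERG9 had 100% in Bdp1AA Rna15AA and between 94.9 and 99.9% in Bdp1AA. The top of this ranking thus holds genes whose share is near 100% in both groups.

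Some reads spanned several genes. Where a position is listed under several coding genes, the gene further upstream never had more reads than the nearer one, in 1987 of 1987 cases in Bdp1AA Rna15AA and 344 of 344 in Bdp1AA, and the smaller number is taken to count reads long enough to reach the upstream gene. Positions with reads under at least 2 coding genes numbered 1841 in Bdp1AA Rna15AA and 331 in Bdp1AA. Those under at least 3 numbered 137 in Bdp1AA Rna15AA and 13 in Bdp1AA, and those under at least 4 numbered 8 in Bdp1AA Rna15AA and 0 in Bdp1AA. The following examples were chosen after their values were seen. At position 453906 of chromosome VIII, on the plus strand, 479 reads in Bdp1AA Rna15AA lay under YHR175W-A, 334 of them also under the copper transporter gene CTR2 and 175 also under ENO2, the enolase gene. On chromosome XV, at position 269716 on the minus strand, 489 reads lay under YOL029C, 279 under YAP7 and 104 under MDM38. On chromosome XII, at position 718164 on the minus strand, 355 reads lay under GCD7, 139 under SEC72, 93 under GSP1 and 11 under ATP14. The longest chain had 5 listed genes, with PGI1 nearest to the end and TAF5 furthest upstream.

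Expression, measured as the downstream 3′ end signal of a gene, was rearranged in both directions. The signal sums only positions with at least 11 reads in Bdp1AA Rna15AA or 17 reads in Bdp1AA. Reads spread thinly over many positions are thus left out of a ratio, and the part of this in the ratios was not tested. Log2 ratios are Bdp1AA Rna15AA over Bdp1AA and are centred on the median gene, whose ratio on the deposited scale was −0.34. The scale is relative, so whether the cells held less mRNA in all cannot be told, and fewer cells and less RNA per cell cannot be told apart. Of 2936 genes, 736 had a signal 2-fold or more above that in Bdp1AA (25.1%) and 736 had one 2-fold or more below it (25.1%). Genes with too few reads in the shallower Bdp1AA Rna15AA table were left out, while 4544 genes were compared for Bdp1AA against WT. In the lowest of 6 bins of Bdp1AA signal, 51.4% of coding genes were higher and none lower. The even split thus depends on which genes entered and on the centring, and is not read as a balance. On the deposited scale without centring the split was 509 higher and 984 lower. The counting interval of the ratio lay wholly beyond 2-fold for 605 higher and 639 lower genes. For comparison, Bdp1AA against WT had 285 of 4544 genes higher by 2-fold or more (6.27%) and 448 lower (9.86%), with a distal shift in 106 (2.33%). The comparison of Bdp1AA Rna15AA with WT had 785 of 3005 higher (26.1%), 740 lower (24.6%) and 1261 distal (42.0%). These comparisons share tables with the main one and do not stand apart from it.

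HSP12, a small stress-induced membrane protein gene, had the highest ratio among coding genes holding 200 or more reads in each table. It had 16730 reads and a signal of 1269 in Bdp1AA Rna15AA, and 823 reads and a signal of 41.9 in Bdp1AA, a log2 ratio of 5.26 (interval 5.16 to 5.36). Its ends did not move, with means of 195.5 nt in Bdp1AA Rna15AA and 195.4 nt in Bdp1AA. PYC1, a pyruvate carboxylase gene, followed with 4423 reads in Bdp1AA Rna15AA and 301 in Bdp1AA (4.79), and ZRT1, the high-affinity zinc transporter gene, with 7690 reads in Bdp1AA Rna15AA and 603 in Bdp1AA (4.59). In PYC1 the site at 143 nt took 98.4% of reads in Bdp1AA Rna15AA and 43.2% in Bdp1AA. The others among the 10 highest were MAM33 (3.96), CTR2 (3.93), DDR2 (3.87), YHR054C (3.68), CDS1 (3.55), SLY1 (3.52) and TAF12 (3.36).

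Of these, CTR2, YHR054C and SLY1 stood out by reads that began further upstream. In Bdp1AA Rna15AA 49.1% of CTR2 reads were also listed under ENO2, 44.6% of YHR054C reads under CUP1-2 and 34.1% of SLY1 reads under CCT6, and none were in Bdp1AA. Without those reads the ratios were 2.97, 2.85 and 2.94. Only reads long enough to be listed under the upstream gene were taken out, so shorter reads of such transcripts may remain. YHR054C and CUP1-2 lie in a repeated locus, so their reads may be divided between copies. MUD1, a U1 snRNP protein gene named after its values were seen because it had fewer than 200 reads in Bdp1AA, went further. It had 6907 reads in Bdp1AA Rna15AA and 169 in Bdp1AA (6.27), and 43.6% of its Bdp1AA Rna15AA reads were also listed under TEF2, the translation elongation factor gene upstream of it. MGR1, chosen in the same way, had 4635 reads in Bdp1AA Rna15AA and 171 in Bdp1AA (5.67), with 32.1% of its Bdp1AA Rna15AA reads also under PDI1.

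At the other end, among coding genes with the same 200 reads or more in each table, RIB5 and RIB3, both of riboflavin synthesis, were among the 3 lowest. Genes with fewer reads in Bdp1AA Rna15AA, such as ARG8 (−5.06) and HTB2 (−4.89), were lower still. RIB5 had 363 reads in Bdp1AA Rna15AA and 13581 in Bdp1AA, a log2 ratio of −4.31 (interval −4.47 to −4.16), and RIB3 had 340 reads in Bdp1AA Rna15AA and 10944 in Bdp1AA (−4.10). CMK2, a calmodulin-dependent kinase gene, had 259 reads in Bdp1AA Rna15AA and 8689 in Bdp1AA (−4.16). MRH1 (−4.03), ARO3 (−3.92), RPL26A (−3.84), YOL014W (−3.75), LEU4 (−3.41), PUN1 (−3.39) and YDR210W (−3.20) completed the 10. Ends had moved in some of these genes, by 77.2 nt in RIB3 and 69.2 nt in CMK2, and hardly in others, by 5.69 nt in RIB5 and 5.39 nt in ARO3. RPL26A has a paralog, and its shift of 122 nt turned to −3.70 nt when ends were counted under the nearest upstream gene only. That setting leaves out ends past a whole listed same-strand gene.

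Reads that began under an upstream gene were found for many genes. In Bdp1AA Rna15AA 579 coding genes had reads also listed under a coding gene further upstream, and in Bdp1AA 68 had. The share of genes at least 2-fold higher was 42.7% (36.6 to 49.0%) among 260 genes with 10% or more such reads in Bdp1AA Rna15AA, 37.0% (31.7 to 42.5%) among 319 genes with fewer and 18.8% (17.2 to 20.5%) among 2188 genes with none, against 23.2% of all coding genes. The classes are set by reads of Bdp1AA Rna15AA, which also enter the ratio, so their order is partly fixed by the classing and nothing is read from it. The median signal of these classes in Bdp1AA was 16.3, 81.3 and 38.7 in the same order, against 38.2 over all coding genes, and the part of signal level in the order of the shares was not tested. With those reads taken out and the ratios centred again, 90 of the 260 genes were higher, against 111 with them, and their median log2 ratio was 0.42, against 0.75. Among the 2188 genes with none, 423 were higher, against 412 before centring again, and over all coding genes 629 were, against 641. By the direction of the upstream gene, which uses no reads, 25.4% (23.1 to 27.8%) of 1370 genes with a tandem upstream gene and 21.0% (18.9 to 23.2%) of 1396 with a divergent one were higher.

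Gene length also went with the ratio. Among coding genes of 78 to 541 nt, the shortest of 6 bins, the log2 ratio had a median of −0.68, and 41.9% were at least 2-fold lower (26.2% of all coding genes were). Among those of 1929 to 8019 nt it had a median of 0.50, and 10.02% were lower. Spearman's rho of ratio and length was 0.26 across these genes, which are not independent replicates. By signal in Bdp1AA, the median was 1.04 in the lowest of 6 bins and −0.73 in the highest. In the lowest bin no gene was called lower, since 60 reads are a larger signal in the Bdp1AA Rna15AA table and a lower gene would not have been compared. Lower calls made up 11.3% in the second signal bin, 40.3% in the fifth and 39.9% in the highest. The list shares given below were not matched for length or signal.

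**Figure D4:**
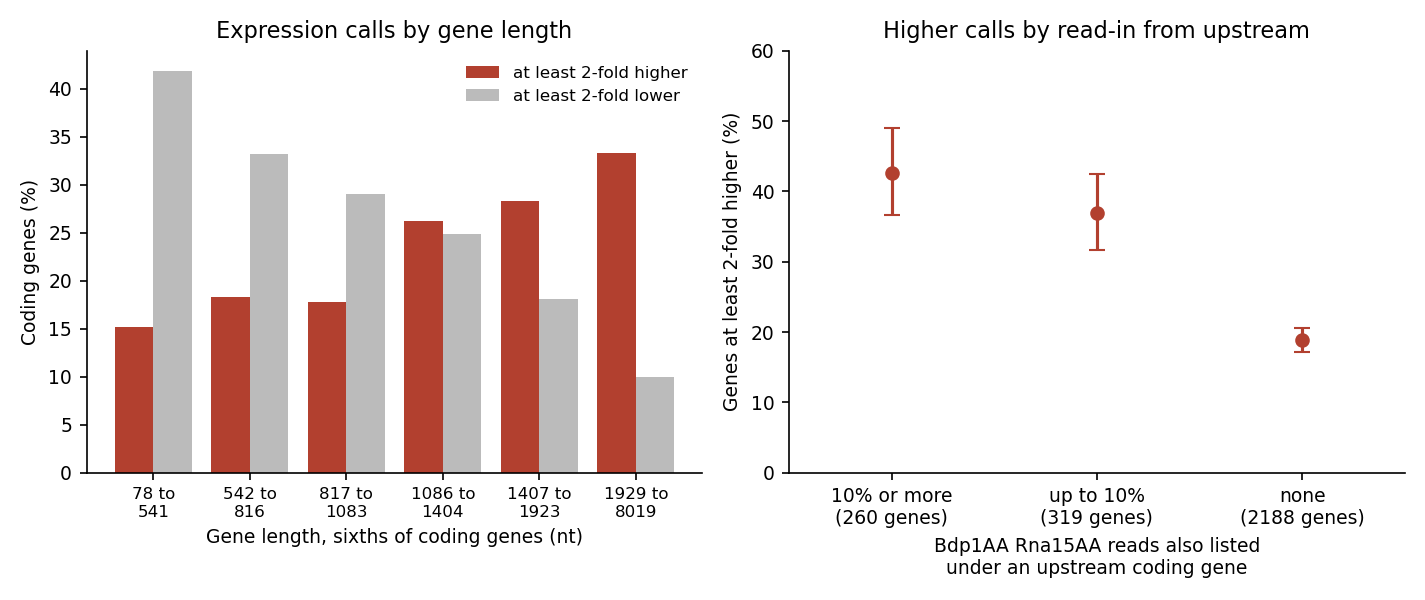
Left, share of coding genes called at least 2-fold higher (red) or lower (grey) in Bdp1AA Rna15AA over Bdp1AA, by 6 bins of gene length in nt: from the shortest to the longest bin, higher calls run from 15.2% to 33.3% and lower calls from 41.9% to 10.02%. Right, share called higher by the percent of Bdp1AA Rna15AA reads also listed under an upstream coding gene, with exact 95% intervals over genes, at 42.7%, 37.0% and 18.8%, where the classes share their Bdp1AA Rna15AA reads with the ratio.

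Amino acid synthesis genes that are targets of the transcription factor Gcn4 had the lowest median of the lists. Of 49 members compared, 34 were at least 2-fold lower in Bdp1AA Rna15AA and 2 higher, with a median log2 ratio of −1.80, against 26.2% lower and a median of −0.06 over all coding genes. ARG8, of ornithine synthesis, had a signal of 5.08 in Bdp1AA Rna15AA and 215 in Bdp1AA (−5.06). LEU2 had a log2 ratio of −4.24, ARO3 one of −3.92 and LEU4 one of −3.41. The 2 higher members were SER3 (1.38) and LYS1 (1.31). In Bdp1AA against WT, 41 of 52 members were at least 2-fold higher with a median of 1.84, and in Bdp1AA Rna15AA against WT the median was 0.36 with 13 of 49 higher and 9 lower. Both pairs share a table with the comparison above, and the list was known to be high in Bdp1AA. Ends were distal in 29 of the 49 members (59.2%, against 42.3% of all coding genes), and the median shift was 27.2 nt with the mean and 5 nt with the median end position, with the largest shifts in BAT2 (1624 nt) and HIS4 (607 nt).

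Stress-induced genes had the highest median of the lists with at least 5 compared members, 0.93, with 11 of 23 at least 2-fold higher (47.8%) and 3 lower (13.0%), against 23.2% higher and 26.2% lower over all coding genes. After HSP12 and DDR2 came the polyubiquitin gene UBI4, with a signal of 1142 in Bdp1AA Rna15AA and 292 in Bdp1AA (2.31), and TMA10 with 341 in Bdp1AA Rna15AA and 91.5 in Bdp1AA (2.24). HSP31 was lower, with a signal of 26.4 in Bdp1AA Rna15AA and 134 in Bdp1AA, and 78.2 percentage points of its reads lay at other sites. Heat shock proteins and chaperones had a median of 0.48, with 5 of 19 higher (26.3%, near the share of all coding genes) and 1 lower, led by MDJ1, a mitochondrial J-protein gene (2.65), and SSE2 (1.80), while STI1 stood at −1.48. HSP82 stood at 1.35, with a mean end at 227.5 nt in Bdp1AA Rna15AA and 118 nt in Bdp1AA.

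Proteasome genes had both more higher calls and more distal ends than coding genes as a whole. Of 33 compared, 14 were at least 2-fold higher (42.4%, against 23.2% of coding genes) and 5 lower (15.2%, against 26.2%; median 0.42), and 23 had a distal shift (69.7%, against 42.3% of coding genes). RPN4, the transcription factor of proteasome genes, had a signal of 152 in Bdp1AA Rna15AA and 20.1 in Bdp1AA (3.26). RPN1 stood at 3.24, PRE4 at 2.73 and RPN6 at 2.56. PRE5, a 20S core subunit gene, was lower, with a signal of 25.1 in Bdp1AA Rna15AA and 172 in Bdp1AA (−2.43), and its mean end lay at 902 nt in Bdp1AA Rna15AA and 158 nt in Bdp1AA. PRE6 had a signal ratio of 1.15 and a mean end at 608 nt in Bdp1AA Rna15AA and 68.5 nt in Bdp1AA. With the median end position the median shift of this list was 11 nt, against 48.8 nt with the mean.

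Genes of the respiratory chain and ATP synthase had a distal shift in 22 of 34 cases (64.7%, against 42.3% of all coding genes), and 7 were at least 2-fold higher (20.6%) and 6 lower (17.6%), against 23.2% and 26.2% of all coding genes (median −0.33). With the median end position the median shift of this list was 5.5 nt, against 30.5 nt with the mean. COX6, a cytochrome c oxidase subunit gene, had a mean end at 862 nt in Bdp1AA Rna15AA and 244 nt in Bdp1AA. QCR6 (2.59) and SDH2 (2.58) were the highest and ATP17 (−2.46) the lowest in signal. Aminoacyl-tRNA synthetase genes had 13 of 19 distal shifts (68.4%), 8 of 19 lower (42.1%) and none higher (median −0.37), and the median shift was 3 nt with the median end position, against 33.5 nt with the mean. Their median signal in Bdp1AA was 174, and 40.3% of coding genes in the signal bin holding that value were lower. DPS1, the aspartyl-tRNA synthetase gene, was lowest, with a signal of 11.7 in Bdp1AA Rna15AA and 286 in Bdp1AA (−4.28) and a mean end at 838 nt in Bdp1AA Rna15AA and 146 nt in Bdp1AA.

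Ribosomal protein genes past 2-fold were almost all lower, but the share that was lower was near that of all coding genes. Of 80 compared for the large subunit 27 were lower (33.8%) and none higher (median −0.65), and of 56 for the small subunit 13 were lower (23.2%) and 1 higher (median −0.56), against 26.2% lower and 23.2% higher over all coding genes. RPL26A was lowest, and RPL36A (−3.08), RPL43B (−2.79), RPL8A (−2.51), RPS29A (−2.33), RPS19A (−1.96), RPS16B (−1.91) and RPS14A (−1.79) followed in their lists. Most of these have paralogs that can share reads, and ribosomal protein genes are short, with list medians of 769.5 and 766.5 nt for the large and the small subunit. Ribosome biogenesis genes had 13 of 42 higher (31.0%), 4 lower (9.52%) and a median of 0.40, led by RPF2 (2.44), DBP2 (2.32) and UTP15 (2.22), while TIF6 stood at −2.60. On the deposited scale without centring the medians of all lists are lower by 0.34, which takes that of ribosome biogenesis genes to 0.06.

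Histone genes had a median of −0.99, with 4 of 9 lower (44.4%) and none higher, where 26.2% of all coding genes were lower and 23.2% higher. Their median length was 399 nt and their median signal in Bdp1AA 936. Of coding genes in the bins holding these values, 41.9% (length) and 39.9% (signal) were lower, near the histone share. HTB2 had a signal of 9.63 in Bdp1AA Rna15AA and 362 in Bdp1AA (−4.89). HTA2 (−1.52), HTA1 (−1.18) and HTZ1 (−1.15) were the other lower members, and the mean ends of HTA1 and HTA2 moved by 105 and 106 nt. Ergosterol genes had 6 of 21 lower (28.6%, near the share of all coding genes) and 1 higher (median −0.61), with MVD1 at −2.40 and ERG4 at −2.24, while ERG13, the HMG-CoA synthase gene, stood at 2.08. Glycolysis genes had 4 of 19 higher (21.1%, near the share of all coding genes) and none lower (median 0.35), led by PDC5 (3.69), PGK1 (2.05) and TDH2 (1.51), and HXK2 was the other higher member. PDC5 had a signal of 6.01 in Bdp1AA, in the lowest of 6 bins, where no gene was called lower. Of its Bdp1AA Rna15AA reads, 18.0% were also listed under CKI1. Translation factor genes had a median of −0.01 with 4 of 25 higher (16.0%) and 2 lower (8.00%), SUI1 standing at 2.77 and TIF35 at −2.38.

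Genes of 3′ end formation differed among themselves. For the counts that follow, 23.2% of all coding genes were higher and 26.2% lower. Members with too few reads in Bdp1AA Rna15AA are left out of these counts. In Bdp1AA against WT, 14 cleavage and polyadenylation factor genes and 6 NNS termination and TRAMP genes were compared, more than here. Members such as RNA14, REF2, PAP2, NRD1 and BRF1 lay in the lowest of 6 bins of Bdp1AA signal, where no gene was called lower. Their higher calls are therefore not set against these shares. Of the other cleavage factor I genes and PAB1, RNA14, whose product is the partner of Rna15, had a signal of 28.6 in Bdp1AA Rna15AA and 8.97 in Bdp1AA (2.01) and HRP1 had 85.2 in Bdp1AA Rna15AA and 42.6 in Bdp1AA (1.34). PAB1, the poly(A)-binding protein gene, had 25.3 in Bdp1AA Rna15AA and 226 in Bdp1AA (−2.82), while PCF11 stood at 0.46 and CLP1 at −0.44. RNA14 also changed sites, with 46.0 percentage points of its reads elsewhere. Of 15 cleavage and polyadenylation factor genes 6 were compared and 1 was higher, REF2 at 1.98, and PAP1, the poly(A) polymerase gene, stood at 0.60. Of 18 exosome and nuclear exonuclease genes 13 were compared, with 5 lower (38.5%) and none higher, RRP42 (−2.85), RRP43 (−2.25), SKI6 (−2.18) and CSL4 (−1.43) being lowest. The ratio of RRP42 leaves out 119 reads that ended inside the gene in Bdp1AA Rna15AA, where none was listed in Bdp1AA. Of the NNS termination and TRAMP genes 3 of 9 could be compared, with PAP2 at 1.78, NRD1 at 1.26 and MTR4 at 0.72, and the mean end of NRD1, an RNA-binding subunit of that termination complex, lay at 608 nt in Bdp1AA Rna15AA and 127 nt in Bdp1AA. Of 19 elongation and CTD factor genes 11 were compared, with 4 higher and 4 lower (36.4% each), from POB3 at 2.82 to DST1, the TFIIS gene, at −3.04 and SPT4 at −2.90. In SPT4 the mean end lay at 989 nt in Bdp1AA Rna15AA and 95.9 nt in Bdp1AA. Of 15 mRNA export genes 8 were compared, with 1 higher (12.5%) and 3 lower (37.5%), MTR2 at −3.26, NPL3 at −2.93 and MFT1 at 1.59. SUB2 of that list had 84.8 percentage points of its reads at other sites and a ratio of −0.57. Of 17 Pol III subunit genes 11 were compared, with 1 higher (9.09%) and 2 lower (18.2%, median −0.39), RPB8 standing at −1.83 and RPC11 at 1.11. Of the TFIIIB and TFIIIC genes 2 of 10 could be compared, BRF1 at 1.03 and SPT15 at −0.72.

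**Figure D5:**
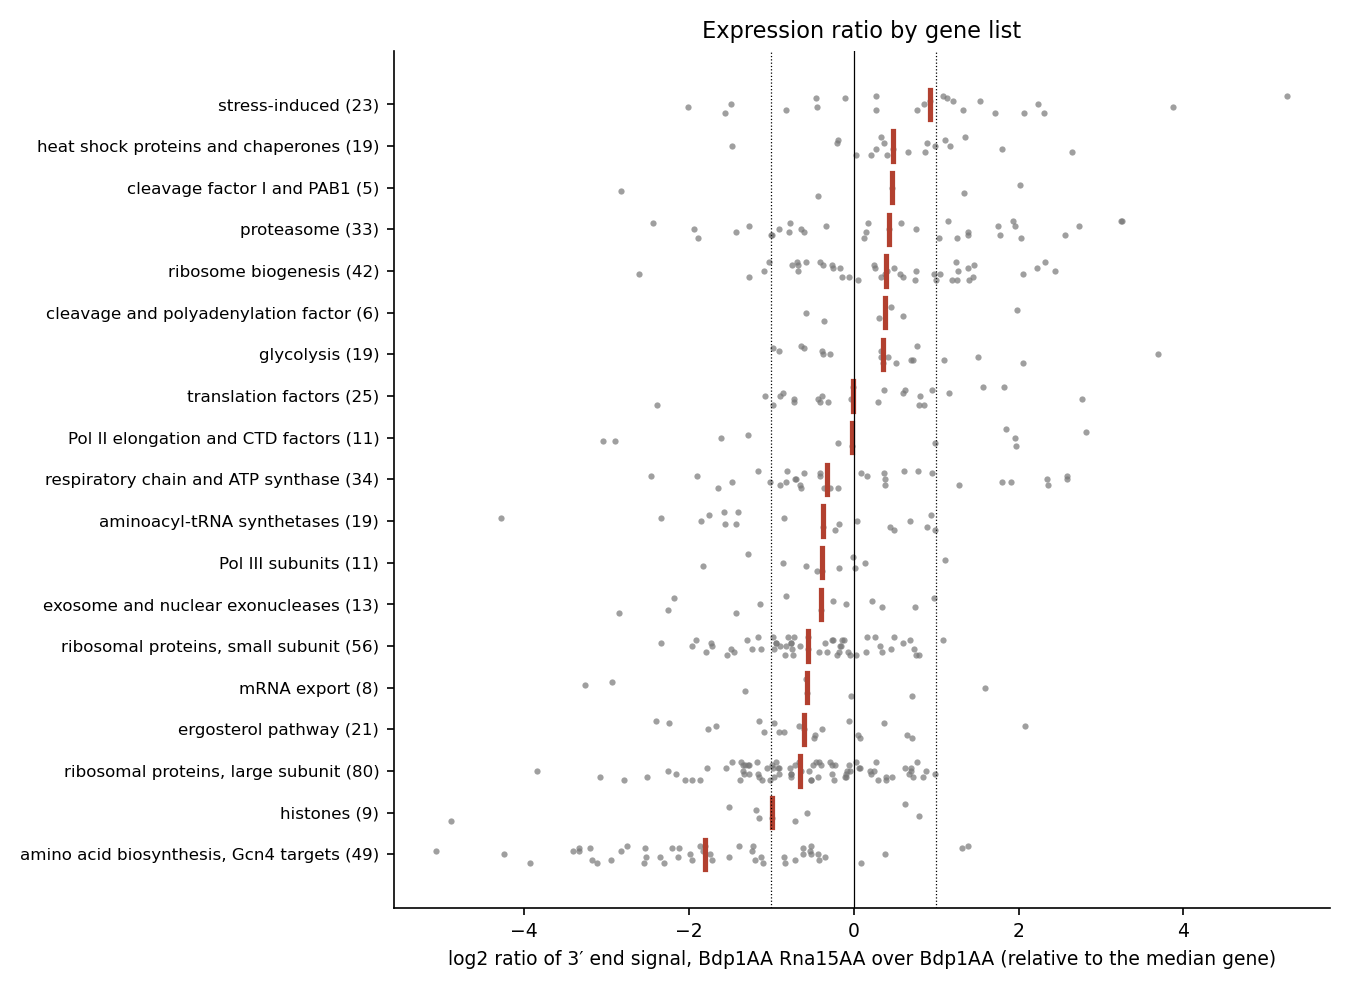
Log2 ratio of 3′ end signal, Bdp1AA Rna15AA over Bdp1AA, relative to the median gene, for each compared member (grey points) of the gene lists with at least 5 compared members, with list medians as red bars, the number compared in brackets and dotted lines at 2-fold. The medians run from −1.80 for Gcn4 target amino acid genes to 0.93 for stress-induced genes.

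Outside protein-coding genes, features of Ty retrotransposons were higher almost throughout. Of 81 compared, 70 were at least 2-fold higher and none lower, with a median log2 ratio of 1.21, against 25.1% higher and 25.1% lower over all compared features, and as copies share reads these are not 81 separate values. Of 29 snoRNA features 12 were higher and 3 lower (median 0.84). Reads start at a poly(A) tail, so these values cover tailed transcripts.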

How the data were processed

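Direct RNA libraries (3 per group) were sequenced on a Nanopore platform from total RNA, and mapped to build R64 per the submitters' processing notes. No source used here gives the aligner or the scale. The authors deposited, per group, 1 table of signal, a scaled number of read ends per gene and position with 3 libraries pooled, per the labels, which name the same table for all 3. All values were whole multiples (within 0.001) of 0.07583 in Bdp1AA Rna15AA, 0.05096 in Bdp1AA and 0.04293 in WT, which was taken as 1 read. Listing starts at 11, 2 and 11 reads in that order, so a common minimum signal of 0.83413 was set. It kept 100%, 94.4% and 98.1% of the downstream signal that was listed.

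Distances were recomputed from the coordinates. On the plus strand the deposited position is 1 base low, judged by the A at the end base. Of 5835 listed genes with a locus tag, 5826 had the same coordinates in the RefSeq R64 annotation. Another 339 listed protein-coding features without a tag (29 of them compared) are counted among all compared genes, not among coding genes, and are not named. Comparisons, thresholds and intervals are as given with the results. Named genes are those of the ranks given in the text, up to 4 per list by size of the ratio, and other list members named for a shift, site usage or a small count were chosen after their values were seen. The values of 1 gene named by these rules are not reported here. The members, gene lists and rules were chosen with earlier results of these data known. No test over libraries was possible on pooled columns. Scripts used Python 3.11.15, pandas 2.3.3, numpy 2.4.6 and scipy 1.17.1, and were tested on simulated data. Alternatives covered the minimum per position, the assignment of shared ends, the reads per gene, the end position, the joining of ends, the scale and the motif windows.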

Additional observations from a re-analysis of the deposited data

Results flagged for a closer look

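Ends inside genes are outside the comparisons above, which use ends downstream of genes, and are listed for the minus strand alone. In 3 coding genes they reached at least 60 reads in Bdp1AA Rna15AA while none was listed inside the same gene in Bdp1AA. RNA15, which carries the FRB tag in Bdp1AA Rna15AA but not in Bdp1AA, had 382 such reads, and the part of the tag was not tested. YMR141C had 186 and RRP42, an exosome subunit gene, had 119. RRP42 also had 81 reads downstream of the gene in Bdp1AA Rna15AA and 1097 in Bdp1AA. Over all minus-strand coding genes, ends inside genes made up 0.571% of reads in Bdp1AA Rna15AA and 0.598% in Bdp1AA.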

How the results depend on the processing

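No paired analysis was possible because each deposited column already sums 3 libraries, and for the same reason no library could be left out. Where a value moved, the cause was not tested unless the setting itself changes how many genes enter. Counting each end under the nearest upstream gene leaves out, by construction, ends past a whole listed same-strand gene, so values under that setting do not measure such readthrough. With the minimum as deposited, 4.79% of reads of tandem genes in Bdp1AA Rna15AA ended in or past the next gene (4.73% at the common minimum), the median share at the main site was 100% (98.0%), and TATATA was found at 40.9% of gained sites (36.9%). With the minimum doubled, 72.2% of reads ended past 100 nt (72.5%), the median shift was 9.84 nt for tandem and 7.68 nt for convergent genes, the next-gene shares were 4.31% (tandem) and 10.4% (convergent), the main-site median was 100%, and 33.3% of genes near tRNA genes were distal (50.8%). With each end counted under the nearest upstream gene, these became 72.0% past 100 nt, 6.36 nt (tandem), 2.70% and 10.8%, with a main-site median of 100%, TATATA at 32.9% of gained sites, median shifts of 8.24 nt for large-subunit and 13.7 nt for Gcn4 target genes, and reversed shifts of −3.70 nt for RPL26A and −0.97 nt for RPS9A. With at least 200 reads 1815 genes were compared, so counts were smaller: 815 distal, 428 with changed site usage, 384 higher and 422 lower, with 72.4% past 100 nt, 13.6 nt (convergent), 4.50% and 10.4% at the next gene, a main-site median of 97.2%, and A-rich motifs at 21.2% of kept and 24.3% of gained sites. With the median end position 641 genes were distal, the median shift was 2 nt (tandem) and 3 nt (convergent), and 20% of genes near tRNA genes were distal. The median list shifts by that measure, added after the data were seen, were 0 nt for cleavage factor I, large-subunit, glycolysis and translation factor genes, 0.5 nt for small-subunit, 3 nt for aminoacyl-tRNA synthetase, 4 nt for ribosome biogenesis, 5 nt for Gcn4 target and stress-induced, 5.5 nt for respiratory, 6 nt for heat shock and 11 nt for proteasome genes. Joining ends at 10 nt gave a main-site median of 84.7% and at 50 nt 100%. Without centring the list medians were −0.99 (large subunit), −0.89 (small subunit) and 0.14 (heat shock). The plus strand alone, 1480 genes, gave 647 distal, 403 with changed usage, 363 higher and 370 lower. Wider motif windows gave TATATA at 43.3% of gained, 46.4% of lost and 55.2% of kept sites and A-rich motifs at 21.3% of kept sites. Without YLR154C-G, added after the data were seen, 71.7% ended past 100 nt. Each result was counted once per setting. Among main results 58 such values stayed within their counting interval or, for counts, within 1.5 times, and 42 did not. Among list medians 146 of the ratio and 78 of the shift stayed, and 3 and 14 did not. The interval of a short list can span all its members, so staying says little there. For named genes, 18 ratios and 16 shifts crossed their threshold and 2 shifts reversed, while 427 ratios and 297 shifts did neither. A position under 11 reads in Bdp1AA Rna15AA is not listed, so low-use sites are not detectable there.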
